A study of Rattus norvegicus with 24 samples.

Results

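Chga, Chgb, Dbh and Moxd1 are 4 of the 32623 genes counted in rat carotid body (CB) RNA, and they are followed here through 24 libraries. They were grouped as a measure of glomus cell content, a name that the values of Moxd1 below go against. They were chosen by symbol from the study's own supplementary gene table, which pairs Ensembl identifiers with names. Only the part of that table with genes higher in the hypertensive strain was read, so the higher level of these genes in that strain was used to choose them and is given below as a description with no test. The study took the left and right CBs of 6 male normotensive Wistar-Kyoto (WKY/NHsd) rats and 6 male spontaneously hypertensive (SH, SHR/NHsd) rats, 12 to 14 weeks of age, and sequenced the polyadenylated RNA of each CB separately. The rats carried no transgene and no treatment is given for these libraries. The 4 groups are therefore WKY left, WKY right, SHR left and SHR right, each with 6 CBs, and both CBs of a rat come from 1 animal. The main fits below took each CB as a separate library, with no term for the rat.

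The CB sits at the fork of the common carotid artery and senses oxygen, carbon dioxide and circulating signals. Its sensory units are glomus (type I) cells, which derive from the neural crest, store catecholamines and peptides in dense-core granules and release them onto the endings of the carotid sinus nerve. Granins are acidic proteins that fill such granules and help to load and condense their content. Chromogranin A (Chga, ENSRNOG00000052549) and chromogranin B (Chgb, ENSRNOG00000021269) are granins. Dopamine β-hydroxylase (Dbh, ENSRNOG00000006641) is the granule enzyme that turns dopamine into noradrenaline. Moxd1 (ENSRNOG00000015321) encodes a monooxygenase of the same copper enzyme family as Dbh, and its substrate is not established.

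Promoter windows from RefSeq (build GRCr8) were found for 3 of the 4 genes, and they are shown because the genes moved together in some comparisons below and apart in others. Each window is the 250 bases before the annotated start, 5′ to 3′ on the gene's own strand. Capitals mark the letters CGTCA or TGACG, the half-site of the cyclic AMP response element (CRE), and the letters ATTA or TAAT, the core that homeodomain factors bind, read on either strand. The windows are chr3:30886078-30886327 (plus strand) for Dbh, chr3:140496462-140496711 (plus strand) for Chgb and chr1:22981060-22981309 (minus strand) for Moxd1.
Dbh: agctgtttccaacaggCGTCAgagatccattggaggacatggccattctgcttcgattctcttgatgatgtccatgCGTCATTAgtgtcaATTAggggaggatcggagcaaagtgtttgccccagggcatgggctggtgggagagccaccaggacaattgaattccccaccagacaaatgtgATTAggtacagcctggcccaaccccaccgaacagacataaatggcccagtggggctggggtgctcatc
Chgb: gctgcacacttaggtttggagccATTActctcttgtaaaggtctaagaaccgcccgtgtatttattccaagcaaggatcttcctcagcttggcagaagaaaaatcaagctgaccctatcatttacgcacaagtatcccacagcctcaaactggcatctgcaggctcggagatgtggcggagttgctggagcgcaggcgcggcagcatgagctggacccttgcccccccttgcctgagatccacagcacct
Moxd1: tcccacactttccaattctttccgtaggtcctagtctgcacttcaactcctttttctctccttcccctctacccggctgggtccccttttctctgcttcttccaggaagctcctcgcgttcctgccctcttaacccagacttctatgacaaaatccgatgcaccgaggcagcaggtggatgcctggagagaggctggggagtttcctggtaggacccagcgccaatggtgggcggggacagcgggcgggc

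The Dbh window held the CRE half-site starting at -234 and at -174 from the annotated start, and the homeodomain core at -170, -160 and -68. The half-site at -174 and the core at -170 share a base and read as CGTCATTA. On either strand this string stands in 60 of 33469 promoter windows of the same length (0.179%). It was taken from the Dbh window itself, so this share does not set Dbh apart. In the Chgb window only the core was found, at -227, and in the Moxd1 window neither set of letters occurred. Over all windows, 18.2% held the half-site and 57.0% the core. The full CRE (TGACGTCA) was in 1.59% of all windows and in none of these 3. These matches describe the letters in the windows only.

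Libraries held 9198341 to 13655419 counts. CPM below are counts per 1000000 scaled with edgeR's TMM method, with no correction for gene length, so levels are compared between libraries and not between genes. The right CB of SH rat 34 stood apart from the rest and is missing from the authors' table of 23 libraries, so each result is given over the other 23 first and with it where it matters. That library had 10450867 counts. Thyroglobulin (Tg), the hormone precursor made by thyroid follicular cells, reached 7832 CPM in it, against 0.0973 to 219 in the others. Next came right CBs of SH rats 30 and 37, with 219 and 29.3 CPM. The 8 glomus markers that could be paired with a symbol include Chga, Chgb, Dbh and Moxd1. Their sum is therefore no separate measure of glomus content. Symbols were read only for genes higher in SHR, so a higher sum in SHR was fixed by the choice. All 8 were detected in the other 23 libraries, summing to 1236 to 1902 CPM in WKY and 1804 to 2782 CPM in SHR. In the right CB of SH rat 34 they summed to 183 CPM, of which Moxd1 made up 105. Without Moxd1 the sum of the other 7 was 77.6 CPM there, against 1228 to 2773 CPM in the others. In bulk RNA, fewer glomus cells and less of a transcript per cell cannot be told apart.

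**Figure D1:**
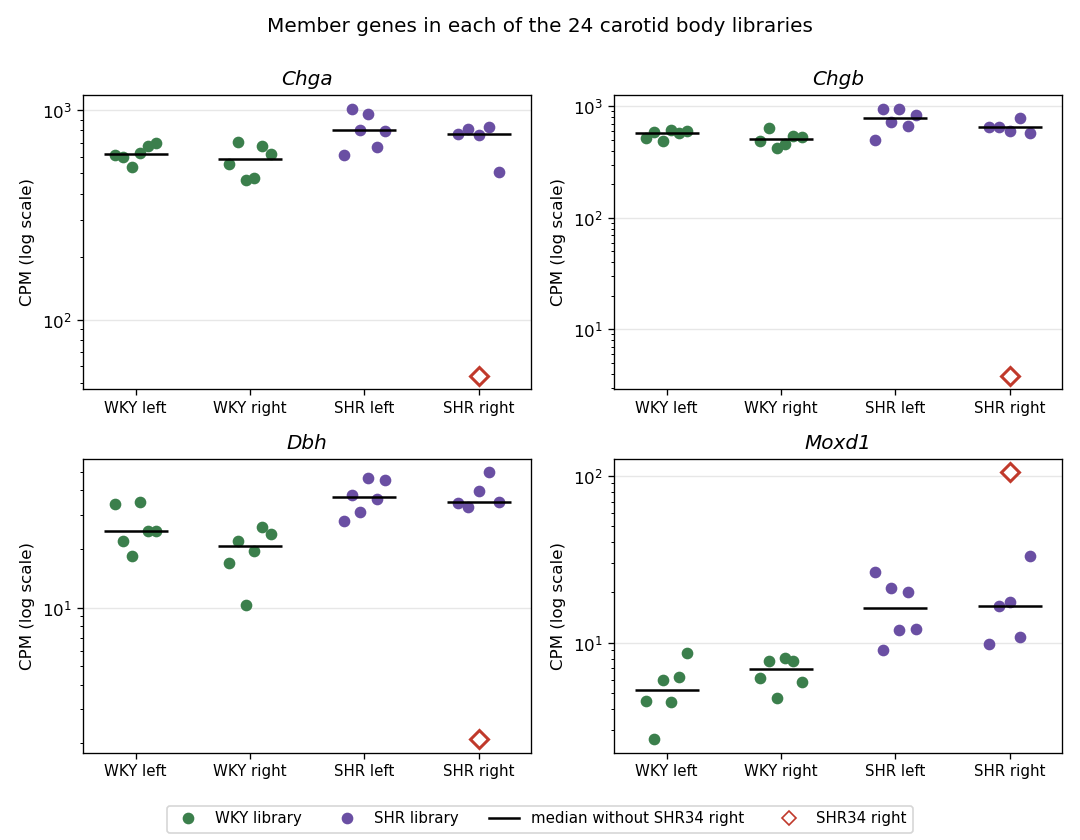
CPM (log scale) of each gene in the 24 libraries by group, with bars at the group medians. The right CB of SH rat 34 (open diamond) is the lowest library for Chga, Chgb and Dbh, at 54.0, 3.83 and 2.10 CPM, and the highest for Moxd1, at 105 CPM.

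Chga was higher in SH rats by a modest margin and the strains overlapped. In the left CBs of WKY rats it ran from 536 to 694 CPM (median 617), and in the right CBs from 462 to 701 (median 586). In the left CBs of SH rats it ran from 609 to 1017 CPM (median 799). The highest left CB was that of SH rat 31 and the lowest that of SH rat 30. The right CBs of SH rats 30, 31, 33, 36 and 37 had 773, 811, 758, 829 and 505 CPM. Rat 37 was thus well below the other 4 on this side, and within the range of the WKY libraries. With the sides of each rat averaged, Chga averaged 601 ± 69.6 CPM over WKY rats and 777 ± 125 CPM over SH rats (SD, n = 6 each, with the left CB alone for SH rat 34), a ratio of 1.29. Of the 6 SH rats, 5 were above every WKY rat. The log2 fold change of SHR over WKY was 0.36 ± 0.0922 (SE).

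Chgb followed the same order. WKY left CBs held 488 to 608 CPM (median 579) and WKY right CBs 426 to 640 CPM (median 505). SHR left CBs held 503 to 954 CPM (median 780). On the right, SH rats 30, 31, 33, 36 and 37 had 646, 652, 597, 780 and 575 CPM. The lowest SHR library was the left CB of rat 30, which sat inside the WKY range. Over rats the means were 537 ± 53.6 and 726 ± 123 CPM (SD, n = 6 each), a ratio of 1.35 with 5 SH rats above every WKY rat. On the log2 scale the strain difference was 0.40 ± 0.0870 (SE).

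Dbh had far fewer counts, 100 to 473 per library, and a wider strain difference. Its WKY left CBs ran from 18.3 to 35.0 CPM (median 24.8) and its WKY right CBs from 10.3 to 26.0 CPM (median 20.7). SHR left CBs ran from 27.8 to 46.3 CPM (median 37.1). The right CBs of SH rats 30, 31, 33, 36 and 37 had 34.5, 32.9, 39.9, 49.7 and 35.0 CPM. Libraries overlapped, since the left CBs of WKY rats 32 and 36, at 34.1 and 35.0 CPM, were above some SHR libraries. Rats did not, with means of 23.1 ± 4.66 CPM for WKY and 38.5 ± 6.60 CPM for SHR (SD, n = 6 each), a ratio of 1.66. The log2 fold change was 0.71 ± 0.140 (SE). It was 0.95 ± 0.190 in the right CBs alone and 0.50 ± 0.161 in the left CBs alone.

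Moxd1 was the lowest in counts, 26 to 308 per library, and had the widest gap between strains. WKY left CBs held 2.63 to 8.71 CPM (median 5.19) and WKY right CBs 4.63 to 8.13 CPM (median 6.95). SHR left CBs held 9.04 to 26.4 CPM (median 16.1). The right CBs of SH rats 30, 31, 33, 36 and 37 had 9.83, 16.6, 17.4, 10.8 and 33.2 CPM. No SHR library fell into the WKY range, although the lowest SHR library, at 9.04, was close to the highest WKY library, at 8.71. Over rats the means were 6.05 ± 0.927 and 16.7 ± 5.87 CPM (SD, n = 6 each), a ratio of 2.77, with a log2 fold change of 1.51 ± 0.217 (SE). The lowest library rested on 26 counts, whose exact 95% interval is 1.72 to 3.86 CPM and covers counting error only.

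The order of the groups differed among the genes. By median, WKY right was lowest and SHR left highest for Chga, Chgb and Dbh. For Moxd1, WKY left was lowest and SHR right highest. Within a strain the sides overlapped for every gene. Across all 14243 genes tested, 1470 (10.3%) were called higher in SHR with an adjusted p under 0.05 by edgeR's quasi-likelihood test. Every SH rat was above every WKY rat in 506 genes (3.55%), as for Dbh and Moxd1, and every SHR library above every WKY library in 132 (0.927%), as for Moxd1. Nothing is read from these shares, because the strain difference chose the genes.

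With the right CB of SH rat 34 included, the strain log2 fold changes were 0.23 ± 0.238 for Chga, 0.26 ± 0.351 for Chgb and 0.60 ± 0.254 for Dbh (SE). Moxd1 moved the other way, to 1.96 ± 0.344. With that library and the right CB of SH rat 30 both left out, they were 0.34, 0.40, 0.71 and 1.58.

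Whether the sides differ was not part of the choice of genes and could be tested. None of the 4 passed. Chga was higher on the left in 9 of 11 rats with both sides, with a log2 difference, left over right, of 0.12 (95% interval -0.07 to 0.31). Chgb was also higher on the left in 9 of 11 rats, by 0.19 (0.01 to 0.37), and its unadjusted p of 0.0398 in edgeR's quasi-likelihood test did not hold after adjustment. Dbh was higher on the left in 6 of 11 rats, with 0.19 (-0.10 to 0.48). Moxd1 was higher on the left in 5, with -0.18 (-0.62 to 0.27). The adjusted p was 0.943 for Chga, Chgb and Dbh and 0.962 for Moxd1 (edgeR's quasi-likelihood test, Benjamini-Hochberg adjusted over 14243 genes). No gene of the 14243 (0%) was called between the sides, with 686 at an unadjusted p under 0.05, and DESeq2 called 0, with 718. With the rat as a block edgeR also called 0, with 951 at an unadjusted p under 0.05.

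A difference between sides that depended on the strain was not detected either. The interaction, SHR minus WKY in left over right, was -0.46 for Dbh (95% interval -1.01 to 0.10), the largest in size of the 4. In WKY rats alone the Dbh difference was 0.42 ± 0.208 (SE), while in SH rats alone it was -0.04 ± 0.139. For Moxd1 the interaction was 0.25 (-0.66 to 1.16), for Chgb 0.11 (-0.25 to 0.48) and for Chga 0.04 (-0.35 to 0.43). All 4 had an adjusted p of 0.999966, and 0 of 14243 genes (0%) were called, with 439 at an unadjusted p under 0.05 in edgeR's quasi-likelihood test and 475 in DESeq2, which also called 0.

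Differences between the CBs of one rat remove what the rat's strain and body share, and here the granins moved as a pair. Left minus right of log2(CPM + 0.5) for Chga ran from -0.34 in SH rat 30 to 0.40 in SH rat 37. For Chgb it ran from -0.36 in SH rat 30 to 0.52 in SH rat 31. The sign was the same for both granins in 11 of 11 rats, and WKY rat 33 and SH rat 30 were the rats with more of both on the right. Over the 11 rats Pearson's r was 0.90 (permutation p = 0.00023, adjusted over the 6 pairs of genes 0.00138) and Spearman's rho 0.81 (permutation p = 0.004, adjusted 0.024). Leaving out those 2 rats, the farthest from the median, r was 0.64 (permutation p = 0.060, adjusted 0.315), so the call rests on them. No other rat had more of either granin on the right, so the shared sign of the 9 rats left adds no support. Pearson's r was 0.82 without SH rat 30, whose right CB held 219 CPM of Tg (adjusted p = 0.0321, permutation test). Without WKY rat 33 it was 0.88 (adjusted p = 0.0156, permutation test). The part of Tg in these values was not tested. Both genes are on one TMM scale per library, so an error in that scale would move them together.

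**Figure D2:**
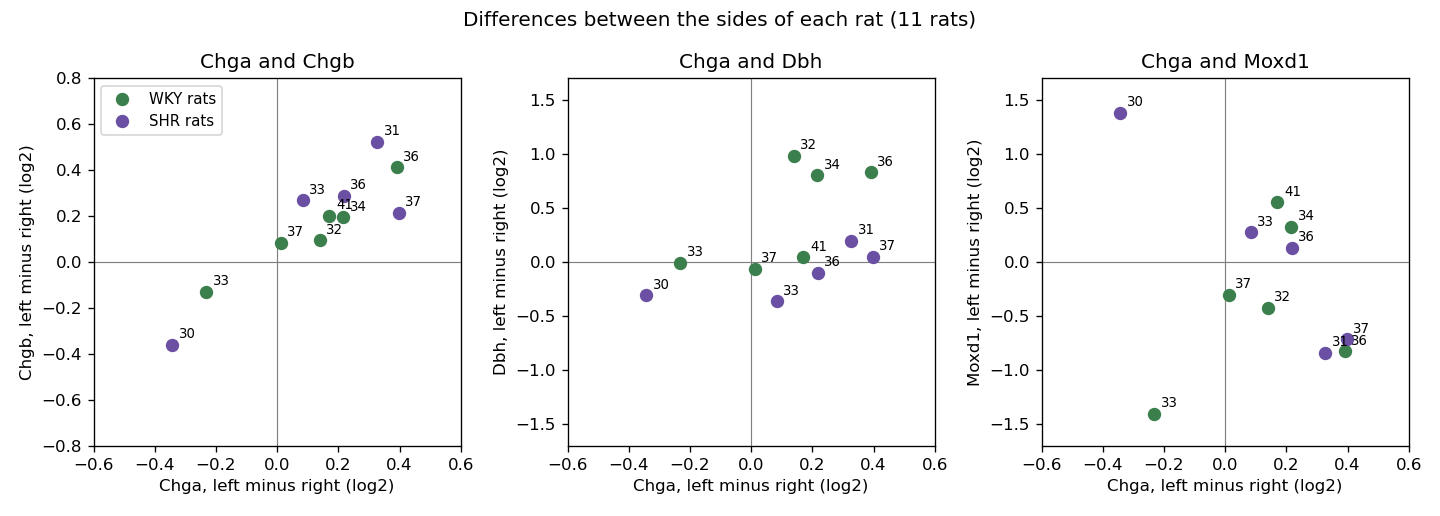
Left minus right of log2(CPM + 0.5) for Chgb, Dbh and Moxd1 against Chga in 11 rats, numbered as in the labels (green, WKY; purple, SHR). Chga and Chgb share a sign in 11 rats (r = 0.90), Dbh and Moxd1 do not follow Chga as closely (r = 0.47 and -0.34).

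No relation of Dbh or Moxd1 with the granins was detected in this measure over the 11 rats. Dbh ran from -0.36 in SH rat 33 to 0.99 in WKY rat 32, and WKY rats 32, 34 and 36, at 0.99, 0.80 and 0.83, lay above the highest SH rat, rat 31, at 0.20. Its r was 0.47 with Chga and 0.31 with Chgb, and it shared the sign of each granin in 8 of 11 rats. Moxd1 ran from -1.40 in WKY rat 33 to 1.38 in SH rat 30, the widest of the 4, and its r was -0.34 with Chga, -0.38 with Chgb and -0.32 with Dbh. Each of these 5 had an adjusted permutation p of 0.354, and Spearman's rho ran from -0.42 to 0.54 with adjusted permutation p of 0.282 to 0.504. SH rat 30 and WKY rat 33 pulled the Moxd1 relations in opposite ways. Without SH rat 30 the r of Moxd1 with Chga was 0.14 (adjusted permutation p = 0.793), and without WKY rat 33 it was -0.81 (adjusted permutation p = 0.0156).

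Counts set against Chga in the same library are a quantity that no scaling touches, and there Chgb varied least. In the 23 libraries there were 78.7 to 114 Chgb counts per 100 Chga counts (median 91.0, CV 9.58%). Dbh had 2.23 to 6.94 (median 4.06, CV 25.8%). Moxd1 had 0.441 to 6.58 (median 1.24, CV 80.6%). Within WKY and within SHR the CV was 6.38% and 12.1% for Chgb, 25.3% and 19.9% for Dbh, and 31.4% and 68.5% for Moxd1. The ratio of the granins thus varied least, and was highest in the right CB of SH rat 37, where Chga was low for its group. Counts per library were 4141 to 9040 for Chgb, 100 to 473 for Dbh and 26 to 308 for Moxd1. Counting error therefore adds more to the CV of Dbh and Moxd1, and its share was not tested. Medians in WKY and SHR were 89.3 and 92.2 for Chgb, 3.68 and 4.81 for Dbh, and 1.05 and 2.04 for Moxd1. The counts of different genes depend on their lengths, so these ratios compare libraries and not genes.

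**Figure D3:**
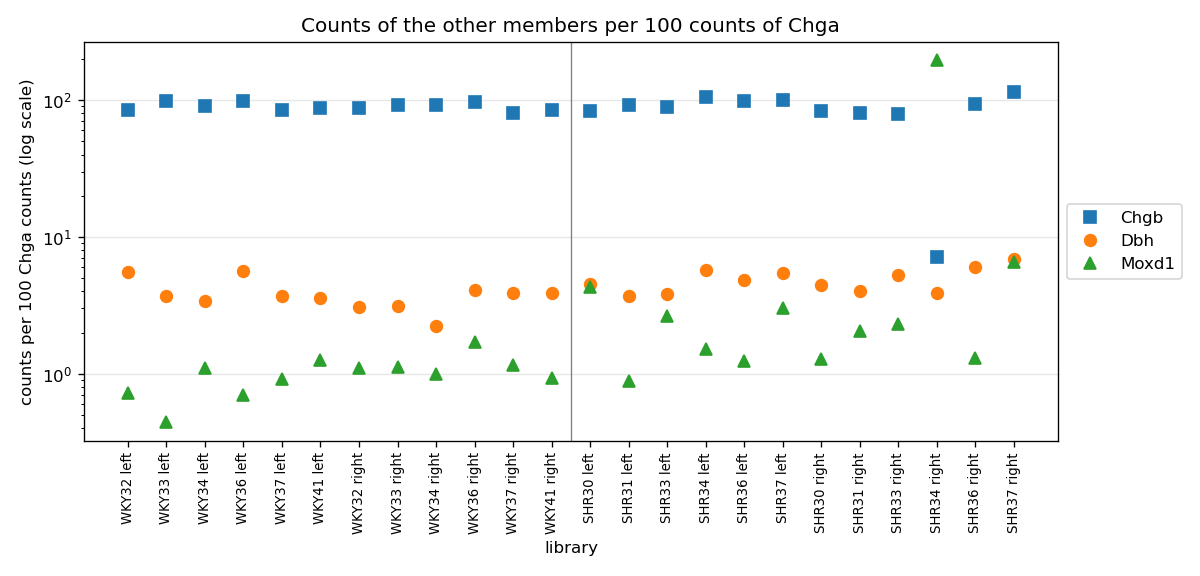
Counts of Chgb, Dbh and Moxd1 per 100 Chga counts (log scale) in each library, WKY left of the vertical line and SHR right of it. In the right CB of SH rat 34, Chgb falls to 7.09 and Moxd1 reaches 195, while Dbh, at 3.89, is inside the range of the other 23.

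In the right CB of SH rat 34 the 4 genes parted. Chga had 437 counts, or 54.0 CPM (exact 95% binomial interval 49.0 to 59.3, counting error only), while the rat's left CB had 796 CPM, 14.7 times higher. Chgb had 31 counts, or 3.83 CPM (2.60 to 5.43), against 840 CPM on the left, 219 times higher. Dbh had 17 counts, or 2.10 CPM (1.22 to 3.36), against 45.3 CPM, 21.6 times higher. All 3 were below each of the other 23 libraries. Moxd1 went up, with 850 counts or 105 CPM (98.0 to 112) against 12.1 CPM in the left CB, so the right was 8.67 times the left. It was above each of the other 23 libraries, whose highest value was 33.2 CPM. There is 1 such library, so these ratios have no replicate check.

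Many genes lay outside the range of the other 23 libraries there. Of the 14243 genes tested, 4244 (29.8%) were below all of them and 3358 (23.6%) above. The Chgb count per 100 Chga counts was 7.09, while that of Dbh, 3.89, stayed within the range of the others. That of Moxd1 was 195. Other genes above all 23 libraries were Tg, the adipocyte fatty acid carrier Fabp4 at 384 CPM (2.53 to 58.1 in the others), and Pmp2, a myelin lipid carrier, at 71.1 CPM (1.05 to 21.6). Of the 4 adipocyte markers paired, Fabp4 was above the range and Adipoq, Lpl and Cfd within it. Of the 10 fibroblast markers, 3 were above and 3 below. The fall was not limited to glomus genes, since 5 of 7 endothelial and 5 of 7 lymphocyte markers were also below. All 4 mitochondrial transcripts listed (ND1, ND2, ND4 and ND5) were above, with ND1 at 18472 CPM (5393 to 9433 in the others), while the 8 ribosomal protein genes listed were within the range. The part of these cell types, or of mitochondrial RNA, in the values of the 4 genes was not tested.

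The glomus markers Sstr1, Agtr2 and Ret were also below all 23 libraries there, and Sstr1 and Agtr2 were near 0. Sstr1, a somatostatin receptor, had 3 counts or 0.371 CPM (147 to 293 in the others). Agtr2, the type 2 angiotensin receptor, had 2 counts or 0.247 CPM (89.5 to 558). Ret, the receptor of the glial cell line-derived factors, had 16.9 CPM (24.9 to 83.6). Chga therefore kept a larger share of its usual level there than Chgb, Sstr1 or Agtr2 did. Dbh kept about as much as Chga, and Ret, with a median of 49.0 CPM in the others, kept more. Log2 over the median of the other 23, with 0.5 added to each CPM, was -3.63 for Chga, -3.59 for Dbh and -7.11 for Chgb. The added 0.5 weighs most on Dbh, which had 2.10 CPM there. With nothing added, left over right in that rat was 14.7 for Chga and 21.6 for Dbh. These values therefore do not place Dbh above Chga.

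Genes of the same roles were taken from lists of catecholamine handling, granule cargo, vesicle release and sympathoadrenal identity. The lists hold 21, 22, 27 and 12 genes, of which 4, 7, 14 and 5 could be paired with a symbol and all of those were tested. Those pairs come from genes higher in SHR, so their strain direction was fixed by the choice. Tyrosine hydroxylase, dopa decarboxylase, the vesicular monoamine transporters and the prohormone convertases were not among them and are not analysed here. None of the paired genes was called between the sides (0% over all genes), with a median left over right log2 difference of 0.10, 0.22, 0.05 and 0.08, against 0.00 over all genes tested. 

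For catecholamine handling the paired genes beside Dbh and Moxd1 were Rnls and Adra2b. Rnls, a flavin enzyme known as renalase, was at 7.88 ± 1.03 CPM in WKY rats and 10.4 ± 1.14 CPM in SH rats (SD, n = 6 each). On the right side of SH rat 34 it stood at 11.7 CPM, within the range of the others. Adra2b, an inhibitory adrenoceptor, was at 1.34 ± 0.650 and 2.20 ± 0.749 CPM (SD, n = 6 each) and also within range there, on 8 counts. In this rat Rnls had 10.8 CPM on the left, and Adra2b 2.80 CPM on the left and 0.988 CPM on the right.

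Granule cargo gave 5 genes beside the granins. Cartpt, the precursor of the CART peptides, was at 17.5 ± 2.87 CPM in WKY rats and 41.9 ± 14.0 CPM in SH rats (SD, n = 6 each). In SH rat 34 it had 68.2 CPM on the left, the highest of the 23 libraries, and 0.371 CPM on the right. Tac3, the neurokinin B precursor, went from 88.7 CPM on the left to 0.124 CPM on the right of that rat, and Npff, the neuropeptide FF precursor, from 10.2 to 2.96 CPM. All 3 were below the other 23 libraries. The precursors Npw and Prlh, at 7 counts each, were within the range. The level in the right CB was thus lower than on the left for all 5, and below the others' range for 3 of them, against 29.8% of all genes tested.

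The vesicle release genes were split in that library, with 9 of 14 below the other 23 (29.8% of all genes tested) and 2 above (23.6%). Below were the calcium sensor Syt6 (1 count), the granuphilin gene Sytl4, the SNARE gene Vamp1 and Stxbp5l (0 counts). So were Rims3 (0 counts), Otof (0 counts), Baiap3, the priming factor Unc13d and dynamin Dnm1. A count of 0 there allows up to 3 counts. Vamp1 had 34.8 CPM against 98.2 to 180 in the others, and Dnm1 72.5 against 92.5 to 161. Sv2b, a synaptic vesicle glycoprotein, was above at 20.3 CPM (1.43 to 9.70 in the others), and so was Stxbp6 at 21.4 CPM (3.05 to 9.86). The sympathoadrenal genes Prph, Chrna3 and Gata3 were below, as were 29.8% of all genes tested. Prph, an intermediate filament of peripheral neurons, had 20.9 CPM (168 to 418), Chrna3, a nicotinic receptor subunit, 1.48 (25.9 to 62.0), and the transcription factor Gata3 0.494 (2.78 to 9.92).

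Likeness to each member was measured as Pearson's r of log2(CPM + 0.5), after subtraction of the mean of each strain and side, over the 23 libraries. It describes how libraries of one group vary together, and points share a library, its depth and its dissection. Among the members, r was 0.83 for Chga and Chgb, 0.62 for Chgb and Dbh, and 0.54 for Chga and Dbh. For Moxd1 r was negative, at -0.44 with Chga and -0.48 with Chgb, and only weakly so with Dbh, at -0.14. These values were not tested. Of the genes compared, 181 had r over 0.7 with Chga, 210 with Chgb, 21 with Dbh and 4 with Moxd1.

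Only genes with a symbol can be named, and symbols were read only for genes higher in SHR. Of the genes with r over 0.7, 18 of 181 for Chga, 24 of 210 for Chgb, 3 of 21 for Dbh and 0 of 4 for Moxd1 had one. Among all genes compared, the 5 named stood at places 6 to 44 for Chga and 16 to 50 for Chgb. For Dbh the places were 13 to 37 and for Moxd1 20 to 59, so closer genes are unnamed. The named genes most like Chga were Pacsin1 (r = 0.87), a membrane-bending adaptor of neurons, the embryonic myosin gene Myh3 (0.85), Chgb (0.83), Dnajc15 (0.83) and Lhfpl5 (0.80). Most like Chgb, after Chga, were the phosphatase gene Pdxp (0.83), Tmem200a (0.83), Camk2n2 (0.80), an inhibitor of CaM kinase, and Tnc (0.79), which encodes the matrix protein tenascin C. Dbh led to lower values, with Poll (0.72), a DNA polymerase, Lef1 (0.72), a transcription factor of Wnt signalling, Dkk3 (0.72), the sodium channel subunit gene Scn3b (0.68) and Lrrc55 (0.67). For Moxd1 the highest were Mapk4 (0.65), Rasal1 (0.62), Slc43a3 (0.62), Cercam (0.61) and PCOLCE2 (0.61), the last an enhancer of collagen processing. These names depend on the measure. With Spearman's rho 3, 2, 2 and 3 of the 5 were kept for Chga, Chgb, Dbh and Moxd1, and with all 24 libraries 2, 2, 3 and 2 of them.

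The right CB of SH rat 34 was not used for these values and shows how far they carry over to 1 other library. Of the 181 genes with r over 0.7 with Chga, 170 (93.9%) were below all 23 libraries there, as were 200 of the 210 for Chgb (95.2%) and 18 of the 21 for Dbh (85.7%), against 29.8% of all genes tested. The 4 genes with r over 0.7 with Moxd1 were all above the 23. Among genes with r under -0.7, 77 of 93 for Chga and 160 of 175 for Chgb were above them, against 23.6%. For Dbh it was 5 of 12, with 1 below. Of the named neighbours, Tnc fell from 2163 CPM on the left of that rat to 18.8 on the right, Tmem200a from 52.0 to 0.247 and Lhfpl5 from 52.1 to 0.124. Dnajc15 and Scn3b fell less, from 110 to 24.7 and from 131 to 20.4 CPM. Poll, the first named for Dbh, stayed within range at 26.6 CPM (15.0 to 38.8 in the others). Every other named neighbour of Chga, Chgb and Dbh was below all 23 libraries. Among the named neighbours of Moxd1, PCOLCE2 had 134 CPM on the right (16.9 to 54.5 in the others), Slc43a3 95.7 (26.0 to 73.0) and Rasal1 4.82 (0.178 to 3.23). Cercam was within range and Mapk4, on 1 count or 0.124 CPM, below it.

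**Figure D4:**
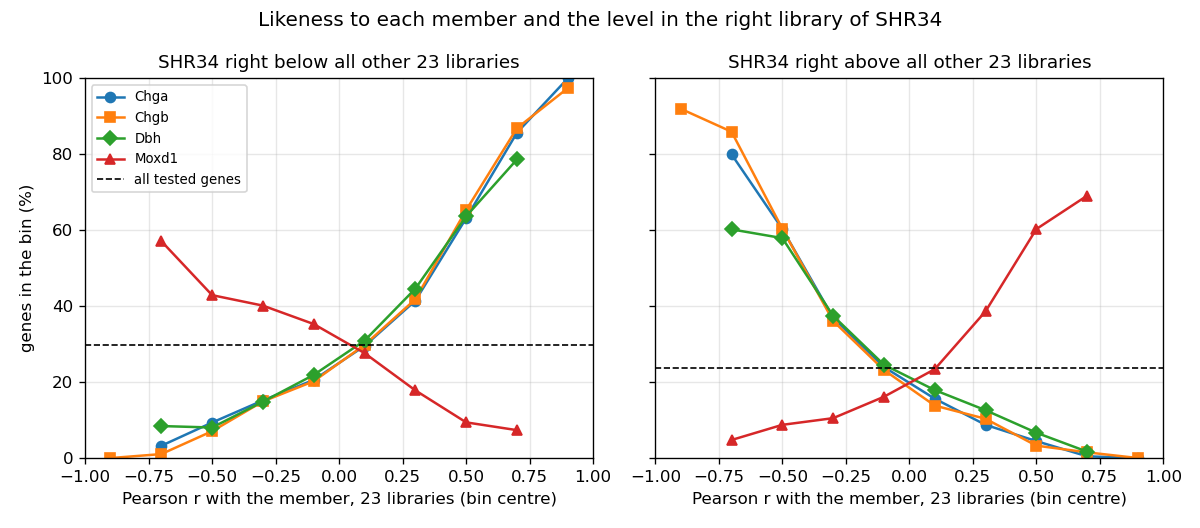
Share of genes (%) in bins of r with each gene, 0.2 wide and of at least 20 genes, that lie below (left) or above (right) all other 23 libraries in the right CB of SH rat 34. The share below is highest at the highest r for Chga, Chgb and Dbh and at the lowest r for Moxd1, and the dashed lines mark all genes tested (29.8% and 23.6%).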

How the data were processed

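Polyadenylated RNA was sequenced from both CBs of 6 rats of each strain, in 24 libraries. The authors aligned reads with STAR and deposited raw counts per Ensembl gene from featureCounts. Versions, build, annotation, strand and multi-mapping settings are not given in the sources used here, so counts of genes that share reads are uncertain. Symbols came from the 1391 rows read of the study's table, which pairs 1273 identifiers with a symbol. The table's fold changes and p-values were not used. Members and lists were chosen with earlier results of these data known.

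Counts were fitted in R 4.3.3 with edgeR 4.0.16 (TMM, robust quasi-likelihood test, two-sided, strain and side as terms) over 23 libraries and the 14243 genes with a mean normalized count above 10. Benjamini-Hochberg adjustment ran over all of these, with a threshold of 0.05. Counts per 1000000 (CPM) of all 24 libraries are on that TMM scale. DESeq2 1.42.0 was an alternative. Correlations over 11 rats used 100000 two-sided permutations. Adjustment was over 6 pairs. Likeness used the 14226 other genes tested that had a mean of at least 1 CPM. Tables used pandas 2.3.3, intervals scipy 1.17.1 and figures matplotlib 3.10.9. The text names the 4 members, the 5 genes with a symbol most like each, and genes of the fixed lists, of which 1 is not reported here.

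On simulated counts, edgeR found 92% of genes changed by 1 and 99% of genes changed by 2 (log2) between strains, with 10 false calls among 14177 genes. Between sides it found 95% and 98%, with 11 false calls among 14173. The changed genes had a mean above 1 CPM, and libraries were drawn independently, without the pairing by rat. Changes as small as those of the members between sides were not simulated. All pairs of libraries differed by more than sampling noise (lowest chi-square per degree of freedom 5.17 over 276 pairs). Left and right CBs with one number come from one rat, which pairs them. Their deviations from the group means correlated at -0.0353 to 0.286 (median 0.115, 11 rats). Rat numbers shared by the strains do not pair the rats (4 numbers, -0.218 to 0.0569).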

Additional observations from a re-analysis of the deposited data

Results flagged for a closer look

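In 20 sets of libraries (each gene in each group, with the right CBs of SH rats taken both with and without SH rat 34), 4 values lay far from the rest by Dixon's criterion, which chance meets in about 1 of 20 such sets. Among the 5 right CBs of SH rats without rat 34, Chga in rat 37 was far below the rest, at 505 CPM. Among all 6, the right CB of SH rat 34 was far below the rest for Chgb, at 3.83 CPM, and for Dbh, at 2.10 CPM. It was far above the rest for Moxd1, at 105 CPM. That library was not among the 23 of the main comparisons and entered only the values given over all 24. Its Moxd1 level of 105 CPM was above each WKY library, of which the highest had 8.71 CPM.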

How the results depend on the processing

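No member was called between the sides or for the interaction under any alternative run, and no gene was called between the sides in any of them, with DESeq2, with the rat as a replicate block or without each rat in turn. The replicate block by rat changed no call and gave a Chgb difference of 0.16 (adjusted p = 0.723, edgeR's quasi-likelihood test). Directions turned for the Dbh side difference in SH rats alone (-0.0398) and for the Moxd1 interaction over all 24 libraries (-0.64). Without single rats, the strain log2 fold change was 0.30 to 0.43 for Chga, 0.33 to 0.45 for Chgb, 0.60 to 0.76 for Dbh and 1.31 to 1.62 for Moxd1. The interaction was -0.0332 to 0.12 for Chga, turning negative without WKY rat 33 (-0.0332), SH rat 31 (-0.01) or SH rat 37 (-0.02), and -0.0689 to 0.55 for Moxd1, negative without SH rat 30 (-0.0689). Over all 24 libraries the Moxd1 strain value was 1.96. With counts summed per rat the strain values were 0.37 for Chga, 0.43 for Chgb, 0.72 for Dbh and 1.47 for Moxd1. Genes called between strains, 2844 over the 23 libraries, numbered 2055 with counts summed per rat, where 15086 were tested. They numbered 1490 over all 24, 1292 in left CBs, 849 in right CBs and 2212 to 2837 without single rats. With the rat number as a replicate block over the shared numbers it was 1571, and 1646 in those rats without it. The block and each side use fewer libraries.

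The r of Chga and Chgb was 0.64 without the 2 farthest rats and 0.82 to 0.95 without single rats. Chgb and Dbh gave -0.0394 without their 2 farthest. Adding SH rat 34 gave 0.95 for Chga and Dbh, 0.94 for Chgb and Dbh, and -0.77 for each pair with Moxd1 (permutation test, adjusted p = 0.0147 for each of these 5), so they rest on 1 rat. Leaving out SH rat 30, an alternative chosen after seeing the data, gave 0.14 for Chga and Moxd1 and 0.16 for Chgb and Moxd1. Without single rats these ran from -0.81 to 0.14 and from -0.75 to 0.16, lowest without WKY rat 33 (-0.81 and -0.75). On plain library totals, Chga and Chgb in the right CB of SH rat 34 were -4.00 and -7.43, against -3.63 and -7.11 with TMM. These values are log2 over the median of the other libraries, with 0.5 added to each CPM. Over all 24 libraries 2241, 2279, 2075 and 692 genes had r over 0.7 with Chga, Chgb, Dbh and Moxd1. With Spearman's rho it was 9 for Dbh and 15 for Moxd1. Moxd1 and Dbh rest on 26 to 473 counts in each of the 23 libraries, which limits what their ratios can show.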
